A study of Mus musculus with 40 samples.

Results

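Of the 15279 probes on the arrays, 148 reported on 91 mouse genes for chromatin remodellers, chromatin modifiers and HMG proteins, out of 6970 genes named by a probe of a single symbol. A probe was taken where the platform annotation gave it a single gene symbol of the Smarc, Chd, Arid, Hdac, Sin3, Ing, Mbd, Kdm, Kmt, Setd, Kat, Brd, Cbx, Hmga, Hmgb or Hmgn families, or the symbol Ezh2, Eed, Suz12, Rbbp4, Rbbp7, Dnmt3a or Dnmt3b. Probes were taken by name alone, but the families were chosen with earlier results of these data known. Array design 1 held 66 of these probes for 51 genes among its 7680 probes. Array design 2 held 82 for 63 genes among its 7599 probes, and 23 genes were on both. The genes fell into 19 families, all 19 measured on array design 2 and 17 on array design 1. Ezh2, Hmga1 and Kmt2a were not analysed here.

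In the nucleus DNA is wound on histone proteins, and the genes described here move, mark, read or bend that packaging. Remodellers spend ATP to slide or evict nucleosomes. Writers add acetyl or methyl groups to histones or methyl groups to DNA, erasers take them off, and readers bind the marks and bring in other complexes. HMG proteins are abundant non-histone proteins that bend DNA or bind nucleosomes and loosen chromatin. In the embryo the Polycomb and trithorax complexes keep developmental genes off or on through cell division, and several HMG genes are transcribed strongly in dividing embryonic cells. DNA damage is also known to draw remodellers, deacetylases and acetyltransferases to broken or alkylated DNA.

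Mouse embryos in culture were exposed to 40 µM 4-hydroperoxycyclophosphamide, an analogue of the DNA-alkylating drug cyclophosphamide that needs no activation by the liver, and kept with it for 5 h at 37 °C. Untreated embryos held at the same temperature were the control. Every one of the 40 2-colour cDNA arrays was hybridised with total RNA of treated and of control embryos together, one per channel, with 5 replicates, both orientations of the channels and 2 readouts of each slide on each array design. The strain, stage and pooling of the embryos are not in the labels used here. Nothing beyond the labels shows that the replicates were separate cultures, so the p-values may rest on technical spread between these samples alone.

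All values are log2 ratios of treated over control embryos, 1 per replicate, set against the median probe on that array. A probe was called higher or lower where limma gave it an adjusted p under 0.05 over all probes of its array design. Neither the numerator nor the base of the deposited ratios is stated in the labels or headers used here. Base 2 and treated over control are therefore assumptions, the latter likely from the channel order in the labels and from Ccng1, a p53 target with mean log2 ratios of 1.39 to 2.90 on its probes. With the other numerator every sign below turns. Arrays of ratios give no level of a transcript, so the tissue could not be checked against its markers, and fewer cells of a type and less RNA per cell cannot be told apart. cDNA probes of related family members may share hybridisation.

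The number of arrays limits the precision. Pairs of replicates correlated over all probes at 0.257 to 0.679 on array design 1 and at 0.353 to 0.686 on array design 2. In replicate 4 of array design 1 the B readout of the slide with treated embryos in channel 2 lacked 786 values (10.2%) and had an SD of 1.13, against 0.765 for the next widest array of that design. Before centring, the replicate medians lay between −0.66 and −0.10, so without centring most probes shift down. The replicate values also followed the dye profile, meaning the mean ratio of both orientations without turning. For array design 1 a smooth fit on that profile explained between 34.0% and 81.5% of a replicate's variance, and for array design 2 between 35.3% and 61.6%. For member probes called with all readouts, the value with this trend removed is given too, and the value with the failing readout left out is given where it changed the call.

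The members moved little. Their means on array design 1 ran from −0.22 to 0.41 with a median of 0.034, and 39 of 66 lay above 0. Those on array design 2 ran from −0.21 to 0.29 with a median of 0.053, and 49 of 82 lay above 0. The medians over all probes were 0.0049 and 0.017, and 51.3% and 54.1% of all probes lay above 0. The SD over 5 replicates had a median of 0.17 on array design 1 and of 0.12 on array design 2, and 32 and 45 members respectively had a mean within 0.1 of 0. All 5 replicates shared a sign for 15 of 66 members on array design 1 and 26 of 82 on array design 2, against 31.1% and 33.8% of all probes.

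On array design 1 a single member was called higher, Eed, and 0 were called lower, beside 0.638% and 0.013% of all probes. At an unadjusted limma p under 0.05 there were 11 higher and 6 lower members of 66, beside 15.3% and 17.7% of all probes. A further 7 members had an adjusted p between 0.05 and 0.06. They were Cbx5, Kdm2b and Suz12 probe c above 0 and Brd1, Cbx7 probe a, Kat2b and Kmt2c probe b below 0. Without the failing readout 6 members were called higher and 3 lower, which is 9.09% and 4.55% of the members beside 10.2% and 5.77% of all probes. The calls on array design 2 were 19 members higher, for 16 genes, and 4 lower, which is 23.2% and 4.88% beside 19.8% and 8.07%. There, 22 members were higher and 8 lower at an unadjusted limma p under 0.05, beside 25.8% and 15.3% of all probes. The shares of members called higher lay near those over all probes in both of these fits. The rises on array design 2 were 1.11-fold to 1.22-fold and the falls 1.11-fold to 1.16-fold. Leaving out replicate 1 of array design 2 lowered its calls to 12 higher and 0 lower, beside 11.7% and 1.64% of all probes. Leaving out replicate 3 lowered the falls to 0, beside 2.37%, and leaving out replicate 2 lowered them to 2, beside 2.93%.

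**Figure D1:**
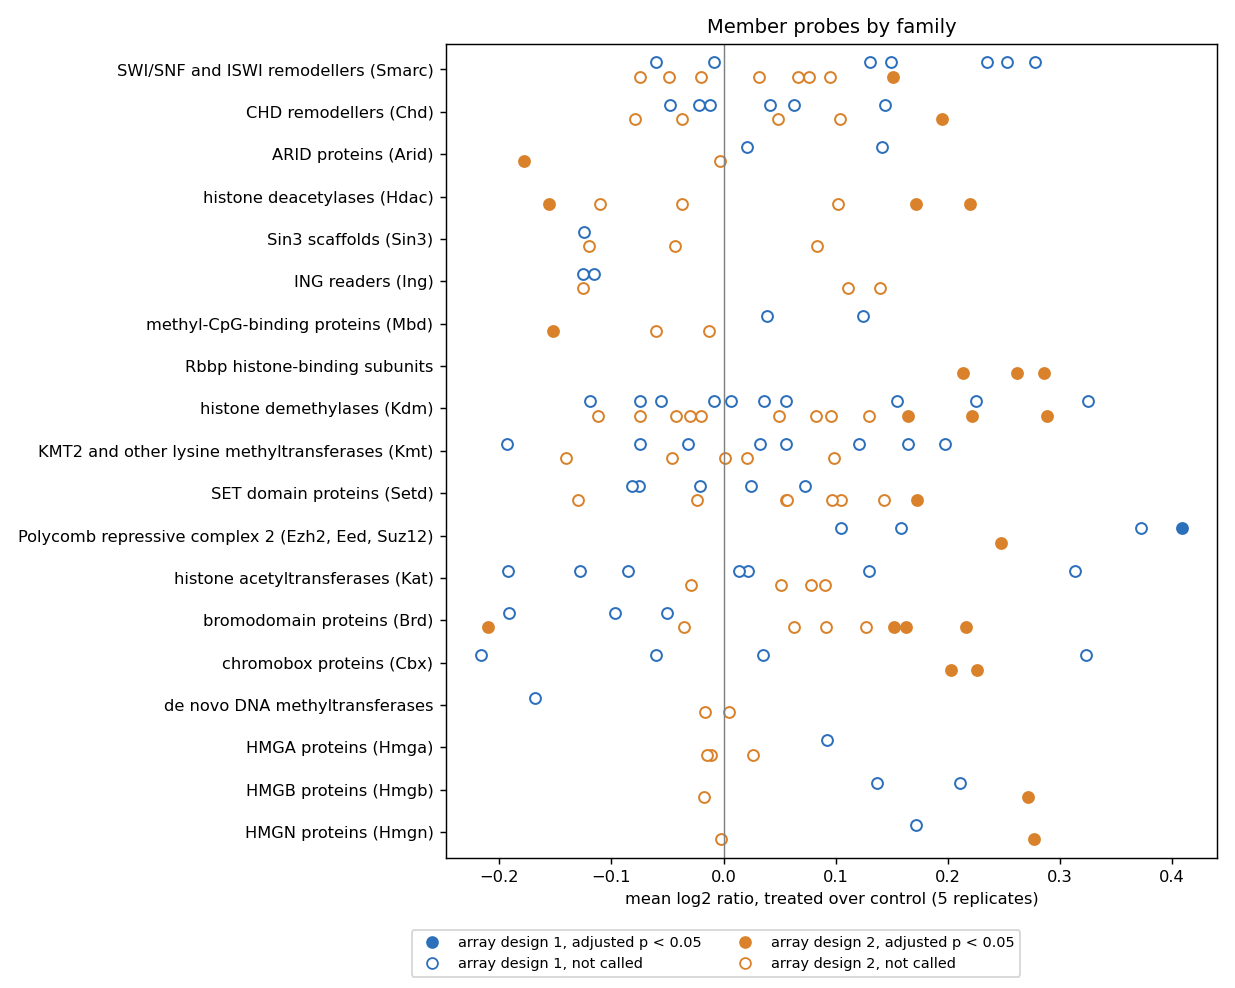
Mean log2 ratio of treated over control embryos over 5 replicates (x axis) for each of the 148 member probes, by family (y axis), with array design 1 in blue and array design 2 in orange and called probes filled. All probes lie between −0.22 and 0.41, and the filled points are Eed on array design 1 and 23 probes of array design 2.

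Removing the dye-profile trend changed which members passed. Array design 1 then had 2 called higher, Eed and Suz12 probe c, and 0 lower, beside 0.56% and 0.221% of all probes. At an unadjusted limma p under 0.05 this fit had 5 higher and 12 lower members, beside 7.06% and 7.3% of all probes. With the trend removed and the failing readout left out, the same counts were 2 and 2, beside 0.977% and 0.56%, the lower ones being Arid1a probe b (−0.18) and Chd4 probe a (−0.19). Array design 2 then had 0 members called higher in limma and 6 lower, beside 3.15% and 1.88% of all probes, with 7 and 12 at an unadjusted p under 0.05, beside 11.1% and 10.1% of all probes. The 6 were the 3 probes of Hmga2, Hmgb2, Chd4 and Sin3a probe a, and none of them was among the 4 called lower before.

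Polycomb repressive complex 2 is the writer of the methyl mark on histone H3 that keeps developmental genes silent. Its catalytic subunit needs Suz12, which holds the complex together, and Eed, which reads the mark and stimulates the enzyme, while Rbbp4 and Rbbp7 are the histone-binding subunits it shares with deacetylase complexes. Eed was the member with the highest mean on array design 1 and was called higher on both designs. The promoter windows of these genes, from 250 bases before to 50 after the transcription start, are shown because Eed, Rbbp4 and Rbbp7 were each called higher on array design 2 and Suz12 had a probe of the same sign. They are from RefSeq on GRCm38.p6, in the direction of the gene, at chr7:89980927-89981226 on the minus strand (Eed), chr11:79992856-79993155 on the plus strand (Suz12), chr4:129335321-129335620 on the minus strand (Rbbp4) and chrX:162760122-162760421 on the plus strand (Rbbp7). Capitals mark matches, on either strand, to the CCAAT box (CCAAT), the GC box (GGGCGG) and E2F sites (TTTCCCGC or TTTGGCGC), and none of the matches overlap.
Eed: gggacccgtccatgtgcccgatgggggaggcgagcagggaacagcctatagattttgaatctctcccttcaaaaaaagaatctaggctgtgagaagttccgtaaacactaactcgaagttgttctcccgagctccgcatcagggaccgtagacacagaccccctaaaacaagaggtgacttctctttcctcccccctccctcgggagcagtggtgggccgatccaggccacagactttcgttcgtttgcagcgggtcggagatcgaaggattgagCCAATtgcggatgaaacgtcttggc
Suz12: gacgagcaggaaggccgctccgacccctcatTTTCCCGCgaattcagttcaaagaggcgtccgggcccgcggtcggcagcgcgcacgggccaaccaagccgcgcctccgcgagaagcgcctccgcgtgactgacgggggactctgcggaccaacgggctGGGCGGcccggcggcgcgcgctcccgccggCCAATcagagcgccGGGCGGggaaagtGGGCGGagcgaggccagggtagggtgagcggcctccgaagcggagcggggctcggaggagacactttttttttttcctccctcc
Rbbp4: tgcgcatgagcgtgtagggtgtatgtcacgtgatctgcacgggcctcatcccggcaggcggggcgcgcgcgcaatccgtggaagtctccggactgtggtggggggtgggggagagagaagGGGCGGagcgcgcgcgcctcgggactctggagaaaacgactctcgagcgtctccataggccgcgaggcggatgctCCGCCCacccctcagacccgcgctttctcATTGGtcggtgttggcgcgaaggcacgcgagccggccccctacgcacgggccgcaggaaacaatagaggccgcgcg
Rbbp7: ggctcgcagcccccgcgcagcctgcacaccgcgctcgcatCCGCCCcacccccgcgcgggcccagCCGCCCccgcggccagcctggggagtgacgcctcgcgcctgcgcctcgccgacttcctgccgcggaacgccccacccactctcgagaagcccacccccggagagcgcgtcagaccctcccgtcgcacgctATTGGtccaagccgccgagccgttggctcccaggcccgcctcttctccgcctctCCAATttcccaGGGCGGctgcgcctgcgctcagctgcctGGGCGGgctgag

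The Eed window held 1 CCAAT box, which lay after the transcription start, and no GC box. The Suz12 window held 1 CCAAT box, 3 GC boxes and 1 E2F site. Rbbp4 and Rbbp7 had 1 and 2 CCAAT boxes and 2 and 4 GC boxes, counted on both strands. In Rbbp7 the GC boxes on the strand of the gene also lay after the start. Of the 91 member genes, 74 matched the promoter table. A GC box was found in at least 1 window of 57 of these (77.0%), and in 38.2% of all genes of the table. A CCAAT box was found in 38 (51.4%) beside 41.1%, and an E2F site in 6 (8.11%) beside 1.8%. Of the 16 genes called higher on array design 2, 15 matched, and 14 had a GC box (93.3%), 7 a CCAAT box (46.7%) and 0 an E2F site. These are matches of letters and describe the windows only.

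Eed had log2 ratios of 0.41, 0.50, 0.35, 0.35 and 0.43 in replicates 1 to 5 of array design 1. All 5 lay above 0 within a narrow range. The mean was 0.41 ± 0.063 (SD, n = 5), a rise of 1.33-fold (limma adjusted p = 0.0196). The mean was 0.22 with treated embryos in channel 1 and 0.60 with treated embryos in channel 2. With the dye-profile trend removed it was 0.33 (limma adjusted p = 0.0317), and without centring 0.097 (limma adjusted p = 0.321). Leaving out replicates 1, 2, 3 or 5 gave means of 0.39 to 0.42 and ended the call, with limma adjusted p of 0.0617 to 0.0977, while leaving out replicate 4 kept it. Over all settings tried the limma adjusted p ran from 4.86e-05 to 0.329.

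The Eed probe of array design 2 had 0.44, 0.063, 0.37, 0.21 and 0.15. Replicate 2 was the lowest and none was below 0. The mean of 0.25 ± 0.16 (SD, n = 5) was a rise of 1.19-fold (limma adjusted p = 0.00368). The arrays with treated embryos in channel 1 gave 0.59 and those with treated embryos in channel 2 gave −0.092. The mean was 0.061 with the trend removed (limma adjusted p = 0.437) and was −0.18 without centring.

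Suz12 had 3 probes, all on array design 1. Probe c had 0.38, −0.011, 0.68, 0.42 and 0.39, with replicate 2 near 0 and the others well above it. Its mean of 0.37 ± 0.25 (SD, n = 5) just missed the threshold (limma adjusted p = 0.0516). It passed with the trend removed at 0.38 (limma adjusted p = 0.0443) and without the failing readout at 0.37 (limma adjusted p = 0.0106). Probe c had no value in that readout, so its replicate values were the same with and without it. Over all settings tried its limma adjusted p ran from 0.00486 to 0.676. Probes a and b had means of 0.10 and 0.16 that rested on replicate 4, at 0.63 and 0.77, while their other replicates lay between −0.18 and 0.10. Without the failing readout these means were −0.021 and 0.039. The probes of this gene thus gave different answers, and their sequences were not analysed here.

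Rbbp4 and Rbbp7 were measured on array design 2 and all 3 probes were called higher, 2 of them for Rbbp4, beside 19.8% of all probes. Rbbp4 probe a had 0.37, 0.31, 0.16, 0.22 and 0.23 and probe b had 0.50, 0.21, 0.17, 0.21 and 0.34. Replicate 1 was the highest on each and all values were above 0. The means were 0.26 ± 0.081 and 0.29 ± 0.13 (SD, n = 5), rises of 1.20-fold and 1.22-fold (limma adjusted p = 0.000853 and 0.000699). Rbbp7 had 0.39, 0.12, −0.00052, 0.22 and 0.34, with replicate 3 just below 0. Its mean was 0.21 ± 0.16 (SD, n = 5), a rise of 1.16-fold (limma adjusted p = 0.0111). All 3 were above 0 in both orientations. Trend removal left means of 0.081, 0.088 and −0.012, none called, and without centring they were −0.17, −0.14 and −0.22.

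**Figure D2:**
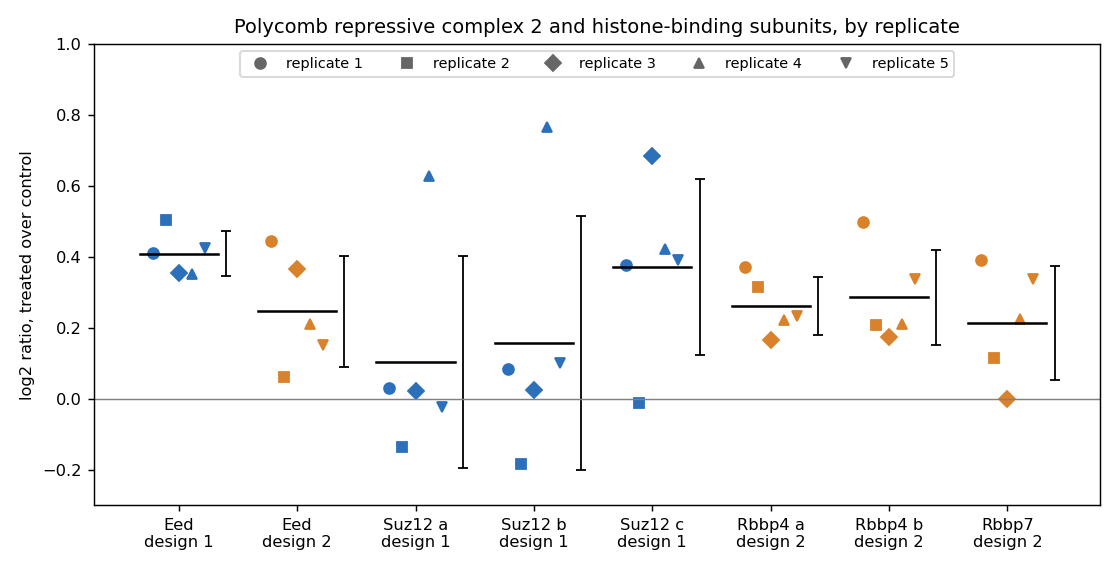
Log2 ratio of treated over control embryos (y axis) in each of the 5 replicates (symbols) for the probes of Eed, Suz12, Rbbp4 and Rbbp7 on both array designs (blue for 1, orange for 2). The black line is the mean and the bar beside it the SD. Eed on array design 1 is the tightest, while replicate 4 stands far above the others on Suz12 probes a and b.

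The HMG genes, the architectural proteins, had 4 probes on array design 1 and 7 on array design 2. Hmgn1, which binds nucleosomes and opposes compaction, had 0.38, 0.23, 0.15, 0.22 and 0.40 on array design 2. Hmgb1, the DNA-bending protein that is also a danger signal outside cells, had 0.38, 0.21, 0.16, 0.23 and 0.38 there. In both, replicates 1 and 5 were the highest and replicate 3 the lowest, and no value was below 0. The means were 0.28 ± 0.11 and 0.27 ± 0.10 (SD, n = 5), rises of 1.21-fold each (limma adjusted p = 0.000684 and 0.000755). Both were above 0 in either orientation, and below it without centring, at −0.15 and −0.16.

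The Hmgb1 probe of array design 1 had 0.26, 0.077, −0.14, 0.35 and 0.51 and a mean of 0.21 ± 0.25 (SD, n = 5), which was not called (limma adjusted p = 0.147). Hmgb3, expressed mainly in embryos, and Hmgn2 had means of 0.14 ± 0.27 and 0.17 ± 0.33 on the same design and were not called. All 4 HMG probes of array design 1 were below 0 in replicate 3 and above 0 in replicates 1, 4 and 5, so their order over replicates was shared. All 4 had no value in the failing readout.

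Hmga2, the HMGA protein of undifferentiated cells, and Hmgb2, the HMGB protein of proliferating cells, had means near 0 before the trend was removed. The 3 Hmga2 probes of array design 2 had means of 0.026, −0.011 and −0.015, and Hmgb2 had −0.017. Each of these 4 probes was above 0 in replicates 1, 4 and 5 and below 0 in replicates 2 and 3. Their orientations disagreed, with Hmga2 probe a at −0.57 with treated embryos in channel 1 and 0.62 with treated embryos in channel 2. With the dye-profile trend removed the Hmga2 probes had −0.34 ± 0.17, −0.35 ± 0.17 and −0.35 ± 0.12 (SD, n = 5), all called lower (limma adjusted p = 0.0133, 0.0118 and 0.00405). Hmgb2 then had −0.28 ± 0.082 (SD, n = 5) and was also called lower (limma adjusted p = 0.00438). The 3 Hmga2 probes report on the same gene. The Hmga2 probe of array design 1 went from 0.092 to −0.17, which was not called (limma adjusted p = 0.112).

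The shift with trend removal was shared by the HMG probes and not particular to them. All 11 had a lower mean with the trend removed, and 10 of them then lay below 0, Hmgn1 at 0.046 being the exception. Members above 0 went from 39 to 23 of 66 on array design 1 and from 49 to 37 of 82 on array design 2. The shares over all probes went from 51.3% to 51.5% and from 54.1% to 50.2%. Medians of histone chaperones, counted below, went from 0.18 to −0.0025 and from 0.23 to −0.0076. Hmgb1 went to −0.003 on array design 2. Hmgn5 had −0.0025 before and −0.11 after removal, not called in either. Whether the dye profile or the treatment set the values of these probes was not tested.

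**Figure D3:**
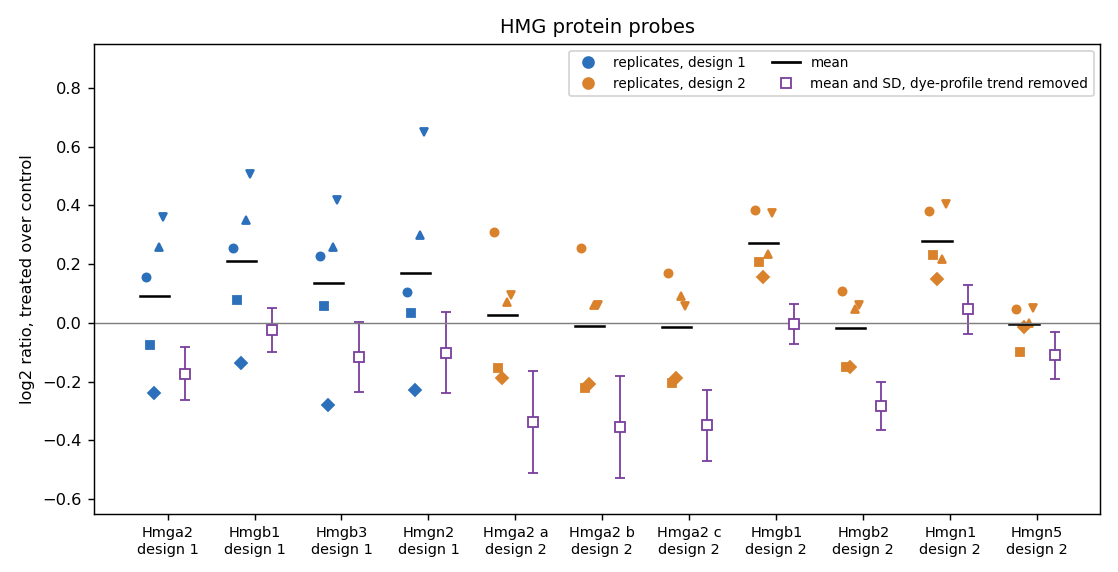
Log2 ratio of treated over control embryos (y axis) for the 11 HMG probes: replicates in colour (circle, square, diamond, upward and downward triangle for 1 to 5) with their mean as a black line (left of each pair), and the mean with its SD after removal of the dye-profile trend as an open square (right). Hmgb1 and Hmgn1 of array design 2 lie above 0 in all 5 replicates before removal, and Hmga2 and Hmgb2 of array design 2 lie between −0.35 and −0.28 after it.

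Among the erasers, the histone deacetylases take acetyl groups off histones and were measured on array design 2 only, with 6 probes for 5 genes. Hdac1 had 0.25, 0.11, 0.15, 0.17 and 0.17. These were close together, all above 0, and the orientations gave 0.18 and 0.16. The mean of 0.17 ± 0.050 (SD, n = 5) was a rise of 1.13-fold (limma adjusted p = 0.0183), and 0.010 with the trend removed and −0.26 without centring. Hdac2, its close partner in the same complexes, had probes called in opposite directions. Probe a had 0.23, 0.088, 0.23, 0.23 and 0.32 and a mean of 0.22 ± 0.084 (SD, n = 5, limma adjusted p = 0.00417). Probe b had −0.30, −0.18, −0.16, −0.031 and −0.11 and a mean of −0.16 ± 0.10 (SD, n = 5, limma adjusted p = 0.0377). The groups of replicate values did not overlap, and a single direction for Hdac2 cannot be given. Trend removal gave 0.046 and −0.11 for probes a and b, neither called (limma adjusted p = 0.551 and 0.256), and without centring probe a was at −0.21. Hdac3, Hdac10 and Hdac11 had means between −0.11 and 0.10 and were not called.

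The Sin3 proteins are the scaffolds on which these deacetylases sit. Sin3a had −0.12 on array design 1 and −0.12 and −0.043 on array design 2, all below 0 and none called. Probe a of array design 2 was below 0 in all 5 replicates, from −0.20 to −0.059, and with the trend removed it was called lower at −0.15 ± 0.067 (SD, n = 5, limma adjusted p = 0.0434).

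The histone demethylases had 22 probes, and 3 of the 12 on array design 2 were called higher, beside 19.8% of all probes. Kdm6a, which removes the methyl mark that Polycomb repressive complex 2 places, had 0.36, 0.16, 0.15, 0.24 and 0.21 there. All values were above 0 and so were both orientations, at 0.27 and 0.17. The mean of 0.22 ± 0.086 (SD, n = 5) was a rise of 1.17-fold (limma adjusted p = 0.00405). With the trend removed Kdm6a kept 0.10 ± 0.025 (SD, n = 5), with the smallest limma adjusted p in that fit of the 19 probes called higher, 0.0974. Its 2 probes on array design 1 had means of −0.0084 and 0.036.

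Kdm7a, a demethylase with a methyl-binding finger, had the highest mean on array design 2, close to that of Rbbp4 probe b. Its probe a had 0.29, 0.43, 0.53, 0.13 and 0.065, with replicates 4 and 5, the slides numbered from 3000, below the others. The mean of 0.29 ± 0.20 (SD, n = 5) was a rise of 1.22-fold (limma adjusted p = 0.00177). The orientations gave 0.97 and −0.39, the widest gap among the 19 probes. Probe b had a mean of 0.16 ± 0.091 (SD, n = 5, limma adjusted p = 0.0277) and the probe on array design 1 a mean of 0.055. After trend removal probes a and b had 0.087 and 0.034, neither called (limma adjusted p = 0.504 and 0.648). Without centring all 3 of these called demethylase probes were below 0, from −0.26 to −0.14.

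Kdm2b, which brings a variant Polycomb complex to CpG islands, had 0.38, 0.11, 0.33, 0.48 and 0.33 on array design 1. All values were above 0, and the orientations agreed at 0.34 and 0.31. The mean of 0.33 ± 0.14 (SD, n = 5) missed the threshold (limma adjusted p = 0.0516) and passed without the failing readout (limma adjusted p = 0.00682), in which this probe had no value. With the trend removed Kdm2b had 0.15 on this design (limma adjusted p = 0.206). On array design 2 it had 0.13 ± 0.20 (SD, n = 5). Kdm5a had −0.056, −0.12, −0.074 and 0.096 on its 4 probes, Kdm5b 0.0070 and 0.049, and Kdm3a −0.11 and −0.043. The remaining demethylases, Kdm1a, Kdm2a, Kdm3b, Kdm4a, Kdm4b and Kdm5c, had means between −0.074 and 0.23, none called.

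The chromobox readers bind methylated histone tails. Cbx1 and Cbx5 are heterochromatin proteins, and Cbx7 belongs to Polycomb repressive complex 1. Cbx5 had 0.33, 0.29, 0.25, 0.13 and 0.13 on array design 2, where it was called higher at 0.23 ± 0.092 (SD, n = 5, 1.17-fold, limma adjusted p = 0.00365). On array design 1 it had 0.26, 0.18, 0.15, 0.52 and 0.50. All 10 values were above 0. The mean of 0.32 ± 0.18 (SD, n = 5) on array design 1 missed the threshold (limma adjusted p = 0.0516) and passed without the failing readout (limma adjusted p = 0.0103), in which this probe had no value. After trend removal Cbx5 had 0.041 on array design 1 and 0.013 on array design 2, and without centring 0.010 and −0.20.

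Cbx1 had 0.25, 0.22, 0.16, 0.21 and 0.18, the narrowest spread among the probes called on array design 2. The mean of 0.20 ± 0.036 (SD, n = 5) was a rise of 1.15-fold (limma adjusted p = 0.0059). Its orientations gave 0.70 and −0.29, and its mean was −0.051 with the trend removed and −0.23 without centring. Cbx3, the other heterochromatin protein, had −0.060 ± 0.12 (SD, n = 5). Cbx7 probe a had −0.19, −0.25, −0.18, −0.22 and −0.25, again close together. The mean of −0.22 ± 0.034 (SD, n = 5) missed the threshold (limma adjusted p = 0.0516) and passed without the failing readout (−0.19, limma adjusted p = 0.0355). Probe a had −0.61 and 0.18 in the orientations, and −0.059 with the trend removed (limma adjusted p = 0.482). Probe b of the same gene had 0.035 ± 0.17 (SD, n = 5).

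The bromodomain readers bind acetylated histones. Brd2 and Brd3, the broadly expressed members of the BET group, were called higher on array design 2. Brd3 probe b had 0.36, 0.18, 0.14, 0.23 and 0.17 and a mean of 0.22 ± 0.088 (SD, n = 5, 1.16-fold, limma adjusted p = 0.00501). Brd3 probe a had 0.16 ± 0.090 (limma adjusted p = 0.0292) and probe c had 0.063 ± 0.098, which was not called. Brd2 had 0.22, −0.021, 0.14, 0.16 and 0.26 and a mean of 0.15 ± 0.11 (SD, n = 5, limma adjusted p = 0.0434), with replicate 2 just below 0. Its orientations gave 0.31 and −0.0036, and the call ended when replicate 1, 3, 4 or 5 was left out (limma adjusted p = 0.0929 to 0.137). The orientations of Brd3 probe b gave 0.82 and −0.38. Trend removal gave 0.039 and 0.0052 for Brd3 probes a and b and −0.019 for Brd2, none called (limma adjusted p = 0.502, 0.945 and 0.804). Without centring the called probes of both genes were below 0, from −0.28 to −0.21. Brdt, the BET protein of the male germ line, had a probe called lower at −0.21 ± 0.15 (SD, n = 5, limma adjusted p = 0.0114) and others at 0.091 and −0.050. The called probe had −0.069 with the trend removed (limma adjusted p = 0.417). Brd1, a scaffold of acetyltransferase complexes, was below 0 in all 5 replicates of array design 1. Its mean of −0.19 ± 0.078 (SD, n = 5, limma adjusted p = 0.0536) passed without the failing readout (limma adjusted p = 0.0473), and it had −0.035 on array design 2. With the trend removed Brd1 had −0.029 on array design 1 (limma adjusted p = 0.749). Brd7 and Brd8 lay between −0.097 and 0.13 and were not called.

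The ING readers, which recognise a methyl mark of active promoters and sit in acetyltransferase or deacetylase complexes, had no called probe. Ing4 came nearest at 0.14 ± 0.097 (SD, n = 5, limma adjusted p = 0.0582), above 0 in all 5 replicates. Ing1 had −0.12 and −0.13 on array design 1 and 0.11 on array design 2. In the Mbd family, named for methyl-CpG binding but grouped here by symbol alone, Mbd3l2 probe b was called lower. Its mean was −0.15 ± 0.13 (SD, n = 5, limma adjusted p = 0.0487), with values from −0.34 to −0.020, and probe a had −0.060. Probe b had −0.043 after trend removal (limma adjusted p = 0.687). Mbd1, Mbd3, a core subunit of the NuRD complex, and Mbd6 had means between −0.013 and 0.12 and were not called.

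The SWI/SNF and ISWI remodellers had 15 probes, with Smarca5 the gene called. This ISWI ATPase spaces nucleosomes. Its probe b on array design 2 had 0.26, 0.12, −0.013, 0.13 and 0.26 and a mean of 0.15 ± 0.11 (SD, n = 5, 1.11-fold, limma adjusted p = 0.0454), with replicate 3 just below 0. Its probe a there had −0.020. On array design 1 it had 0.011, 0.23, 0.099, 0.61 and 0.43 and a mean of 0.28 ± 0.25 (SD, n = 5, limma adjusted p = 0.0764). Without the failing readout this became 0.23 ± 0.18 and passed (limma adjusted p = 0.0383). Trend removal gave −0.0093 for probe b, −0.033 for probe a and 0.065 on array design 1, and without centring probe b was at −0.28.

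Smarca4, the ATPase of SWI/SNF complexes, had 0.12, −0.061, −0.25, 1.18 and 0.27 on array design 1. Replicate 4 stood far above the others, and the mean of 0.25 ± 0.55 (SD, n = 5) was not called. Without the failing readout the replicate 4 value was 0.26 and the mean 0.069. Its probe on array design 2 had −0.049 ± 0.069 (SD, n = 5). The accessory subunits Smarcc1, Smarcd1 and Smarce1 on array design 1 and Smarcb1 and Smarcd2 on array design 2 had means between 0.066 and 0.23, none called. Smarcad1 had −0.060 and −0.0084, and the ATPases Smarca1 and Smarca2 and the related Smarcal1 lay between −0.074 and 0.095, none called.

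Replicate 4 of array design 1 was high for many members. In it 49 of 66 members were above 0, against 29 to 32 in the other replicates. Of the 57 members with a value in the failing readout, 8 exceeded 0.6 in replicate 4, namely Smarca4, Arid1a probe a, Chd4 probe a, Suz12 probes a and b, Smarce1, Kdm1a and Smarca5. Without that readout these 8 lay between 0.0011 and 0.38. The SD over members in replicate 4 was 0.31 with the readout and 0.18 without it, and their median was 0.13 and 0.12.

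**Figure D4:**
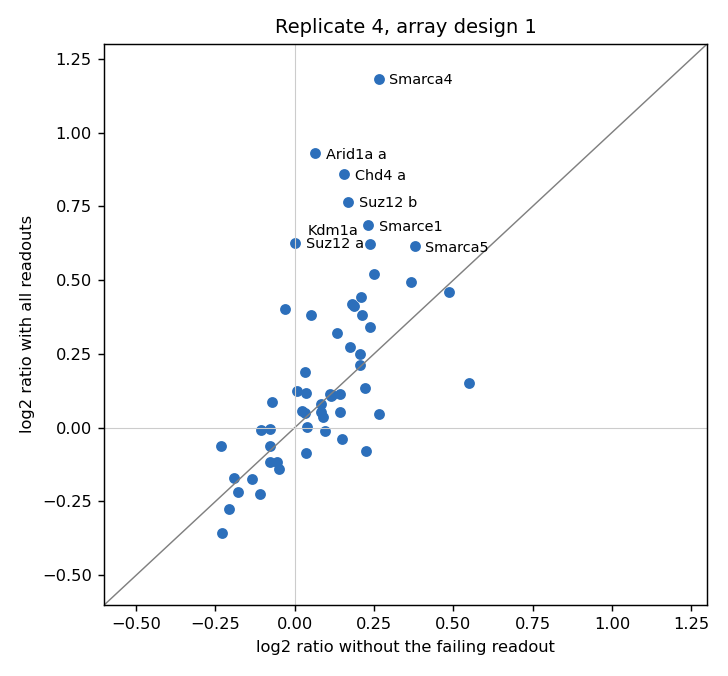
Log2 ratio of treated over control embryos in replicate 4 of array design 1 with all readouts (y axis) against the same ratio without the failing readout (x axis), for the 57 members with a value in it. The line marks equality. The 8 labelled probes exceed 0.6 on the y axis and reach at most 0.38 on the x axis.

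The CHD remodellers had 11 probes. Chd8, a remodeller that restrains p53 and Wnt target genes, had 0.27, 0.24, 0.053, 0.20 and 0.21 on array design 2. The mean of 0.20 ± 0.084 (SD, n = 5) was a rise of 1.14-fold (limma adjusted p = 0.0101), above 0 in both orientations, at 0.045 with the trend removed (limma adjusted p = 0.538) and at −0.23 without centring. Its probe on array design 1 had −0.022. Chd4, the ATPase of NuRD, had 0.14 and 0.041 on array design 1 and −0.079 on array design 2, where it was called lower with the trend removed at −0.23 ± 0.11 (SD, n = 5, limma adjusted p = 0.0208). Chd1 had 0.10 and 0.048, and Chd9 −0.012 and −0.037, while Chd7 and Chd1l lay between −0.048 and 0.063, none called. Of the ARID proteins, which share a DNA-binding domain, Arid1b, a subunit of SWI/SNF complexes, was called lower with −0.25, −0.038, −0.37, −0.073 and −0.15. Its mean was −0.18 ± 0.14 (SD, n = 5, limma adjusted p = 0.0257), with −0.50 and 0.14 in the orientations and −0.034 after trend removal (limma adjusted p = 0.681). Arid1a had 0.14 and 0.021 on array design 1.

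The remaining writers had few calls. Setd2, the methyltransferase that marks the body of transcribed genes, had 0.44, 0.22, 0.10, 0.11 and −0.0069 on array design 2. The mean of 0.17 ± 0.17 (SD, n = 5, 1.13-fold) was called higher (limma adjusted p = 0.0376) although the SD was nearly as large. Leaving out replicate 1, 2 or 4 ended the call (limma adjusted p = 0.0545 to 0.203). It was 0.10 with the trend removed and −0.26 without centring. Setdb1, which marks silenced repeats, had 0.073 and −0.021 on array design 1 and 0.14 and 0.097 on array design 2, and Setd1b had −0.076 and −0.13. Setd1a, Setd3, Setd4, Setd6, Setd7 and Setdb2 had means between −0.081 and 0.10, none called.

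Among the Kmt methyltransferases, Kmt2c probe b had −0.14, −0.23, −0.22, −0.17 and −0.22 on array design 1. All were below 0 within a narrow range. The mean of −0.19 ± 0.038 (SD, n = 5) missed the threshold (limma adjusted p = 0.0516) and passed without the failing readout at −0.19 (limma adjusted p = 0.0386). Probe b had −0.39 and 0.0060 in the orientations, and −0.038 with the trend removed (limma adjusted p = 0.688). Probe a of this enhancer-marking enzyme had 0.055. Kmt2e had −0.075 and −0.046, Kmt5a 0.20 and 0.033, Kmt5c 0.12 and 0.16, and Kmt5b −0.031, 0.0011, 0.099 and −0.14, none called.

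Among the acetyltransferases, Kat14 probe a had −0.062, 0.32, 0.11, 0.46 and 0.74 on array design 1. Its mean of 0.31 ± 0.31 (SD, n = 5) was not called (limma adjusted p = 0.0871) and passed without the failing readout (limma adjusted p = 0.0345), while probes b and c had 0.13 and 0.022. Probe a had 0.82 and −0.19 in the orientations, and 0.28 with the trend removed (limma adjusted p = 0.363). Kat2b, a coactivator that acetylates histones and p53, was below 0 in all 5 replicates at −0.19 ± 0.093 (SD, n = 5, limma adjusted p = 0.0577). Kat6a had 0.014, 0.051 and −0.029. Kat2a, Kat6b, Kat7 and Kat8 had means from −0.13 to 0.090, none called. The de novo DNA methyltransferases had no called probe. Dnmt3b was below 0 in all 5 replicates, from −0.36 to −0.067, at −0.17 ± 0.11 (SD, n = 5, limma adjusted p = 0.0853), and Dnmt3a had −0.017 and 0.0052.

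The 23 probes called on array design 2 were set against orientation, slide series and processing. Of the 19 called higher, 15 were above 0 in all 5 replicates, 19 in both slide series and 11 in both orientations. With the trend removed the 19 lay between −0.051 and 0.10, 14 of them above 0, and none passed in limma. Without centring 0 were above 0, from −0.28 to −0.14, since the whole distribution then lay lower. In that fit 0 members were called higher and 72 lower, beside 0.276% and 87.3% of all probes. The 4 called lower were below 0 in all 5 replicates, in both series and with the trend removed. In both orientations 1 of them, Mbd3l2 probe b, was below 0. They were also below 0 without centring, where 0 of the 82 members of this design lay above 0. Signs in replicates and series are drawn from the same values as the calls. The rises are thus rises against the median probe of the arrays. Across members, the mean and the dye part had a Spearman correlation of 0.088 on array design 1 and 0.43 on array design 2, beside 0.30 and 0.37 over all probes. The probes share arrays and dyes, so these are descriptions.

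**Figure D5:**
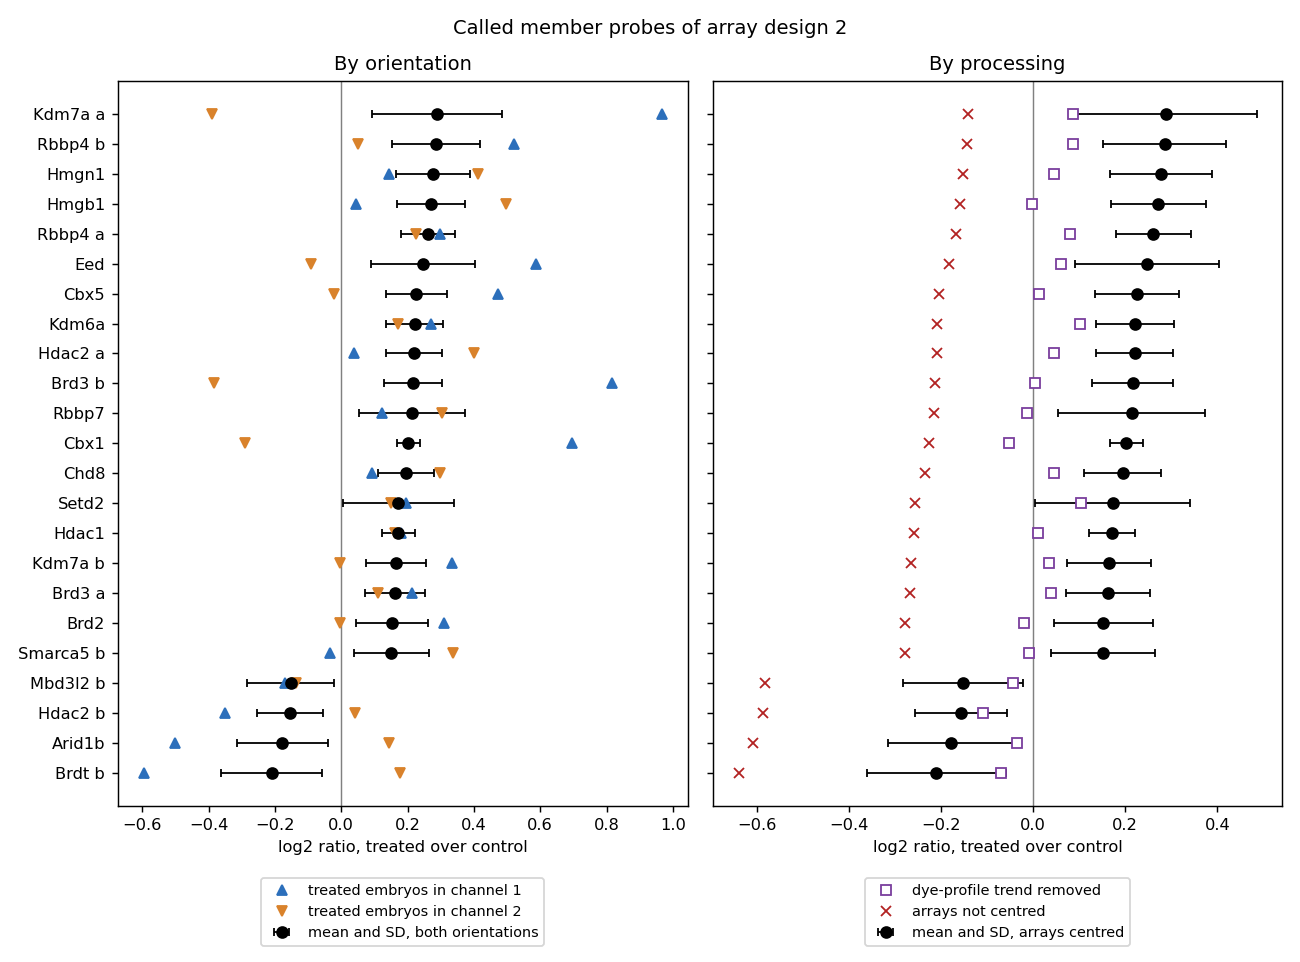
Log2 ratio of treated over control embryos (x axes) for the 23 called member probes of array design 2 (y axis), with the mean and SD over 5 replicates in black. Left, the mean of each orientation, and right, the mean with the dye-profile trend removed or without centring. All 19 probes called higher lie below 0 without centring, and 11 of them are above 0 in both orientations.

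Genes with several probes had their probes set side by side. Signs were not counted over all such genes of the arrays, and probes of a design share arrays and dyes, so these counts are descriptions. Of the 38 member genes with several probes, 14 had all probes above 0, 8 all below 0 and 16 of both signs. Of the 23 genes on both designs, 10 had gene means above 0 on both, 7 below 0 on both and 6 of opposite sign. Eed was the only gene called in the same direction on both designs in the fits with all readouts, where array design 1 had 1 call. With the failing readout left out, Cbx5 and Smarca5 were called higher on array design 1 too (limma adjusted p = 0.0103 and 0.0383), as they were on array design 2. Hdac2 was the only gene with calls in both directions in the fits with all readouts. The smallest gaps between probes of a gene with a call were 0.025 for Rbbp4 and 0.061 for Hmgb1, and the widest was 0.38 for Hdac2.

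Other chromatin genes were counted from 7 lists outside the families above. Of their 104 probes on array design 1, 1 was called higher, Dnajc9, a histone chaperone (0.90 ± 0.16, SD, n = 5, limma adjusted p = 0.00179), and 0 were called lower, beside 0.638% and 0.013% of all probes. Without the failing readout 16 were called higher and 2 lower, beside 10.2% and 5.77%. Array design 2 had 20 of 81 called higher and 4 lower, beside 19.8% and 8.07%, and with the trend removed 2 and 3, beside 3.15% and 1.88%. The histone chaperones, which carry histones to and from DNA, had 8 of 9 probes called higher on array design 2, for Nap1l1, Nap1l4, Nasp, Set, Chaf1b, Anp32a and Npm1, with a median of 0.23 and beside 19.8% of all probes. After trend removal 0 of them passed and the median was −0.0076. On array design 1, 1 of their 24 probes was called higher, that of Dnajc9, and 6 without the failing readout, beside 0.638% and 10.2% of all probes. The median there was 0.18, and −0.0025 with the trend removed. Dnajc9 stayed called with the trend removed, at 0.65 (limma adjusted p = 0.000203). One probe of Rbbp5, a core subunit of the trithorax methyltransferases, had 0.50 ± 0.045 (SD, n = 5, limma adjusted p = 5.46e-07) on array design 2 and 0.31 with the trend removed (limma adjusted p = 0.00365). The other Rbbp5 probes had 0.14 on that design and 0.012 on array design 1 and were not called. Pcgf3, of a variant Polycomb complex, had 0.25 ± 0.020 (SD, n = 5, limma adjusted p = 0.000806) and 0.19 with the trend removed (limma adjusted p = 0.0224). The lists other than the histone chaperones had medians between −0.062 and 0.12 on either design.

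Markers of tissues that a whole embryo may hold were counted on the same arrays. Of the 10 erythroid probes of array design 2, 5 were called higher, beside 19.8% of all probes. They were the 4 probes of Hbb-y, from 0.58 to 0.63, and the probe of Hba-x at 0.58, both globins of embryonic red cells. The list had a median of 0.36, and its other genes there, Alas2, Fech, Slc4a1 and Tfrc, lay between −0.016 and 0.14 and were not called. With the trend removed 3 probes of Hbb-y stayed called, beside 3.15%. On array design 1, 0 of 3 erythroid probes were called, with or without the failing readout, with a median of 0.24. Visceral endoderm markers had 0 of 5 probes called on array design 1 and 0 of 2 on array design 2, with medians of −0.068 and −0.034. Placenta and decidua markers had 1 of 2 called lower on array design 2, beside 8.07%, and 0 of 5 on array design 1. Both probes of array design 2 were for Dcn, at −0.18 (limma adjusted p = 0.0157) and 0.034, the latter not called. The called Dcn probe had −0.071 with the trend removed (limma adjusted p = 0.297). Neural markers had 2 probes, on array design 1, at 0.043 and 0.36 and not called. Leaving out the failing readout gave Tubb3, a neuronal tubulin, called higher on array design 1 at 0.28 (limma adjusted p = 0.0333). Nes, the other neural marker, then had 0.051 and was not called. Dab2 of the visceral endoderm was called higher at 0.20 (limma adjusted p = 0.0319), and had −0.044 on array design 2. The other genes of its list on array design 1, Apob, Apoa1, Ttr and Apoa4, lay between −0.20 and −0.068 without the failing readout and were not called. The placental genes Cts7 and Prl8a2 were then called lower at −0.19 and −0.23 (limma adjusted p = 0.0436 and 0.0298). Hand1 and the Plac1 probes lay between −0.12 and 0.0068 in the same fit and were not called. Over all probes this fit called 10.2% higher and 5.77% lower. The part of these markers in the values of the chromatin genes was not tested.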

How the data were processed

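Total RNA of treated and untreated mouse embryos was compared on 40 2-colour cDNA arrays of 2 designs, 20 each. The deposited values, per the file headers, are 1 log ratio per spot. The authors' scanner, background correction, normalization, numerator and log base were not given in the sources used here, and the values were taken as log2 ratios of channel 1 over channel 2. What the B readout of a slide differs in is not given either. There was no column of another sample's values (0 unused).

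Each array was centred on its median, spots of an accession were averaged, arrays with treated embryos in channel 2 were turned, and readouts and then orientations were averaged to 1 value per replicate. limma 3.58.1 (R 4.3.3) tested these against 0 per design with Benjamini-Hochberg adjustment at 0.05, needing 3 replicates. The dye-profile trend was a smooth of 3 principal components of the un-turned values (mgcv 1.9.3). Centring, turning, averaging of readouts and orientations and the limma test were tried on simulated data with a constant dye part per probe. Trend removal and a failing readout were not simulated.

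Members and lists were chosen with earlier results of these data known. Probes named with values were the calls on array design 1, with and without the failing readout, up to 12 calls each way on array design 2, the smallest p of each family without a call, all genes with several probes and a fixed set of well-known genes. Beyond this rule Brd2, Setd2, Hmgb3, Hmgn5, Smarce1 and Kdm1a, and Dnajc9, Rbbp5, Pcgf3, the histone chaperones and the tissue markers of the other lists, were named after their values were seen. Alternatives changed the centring, scaling, readouts, orientation, slide series, variance model, threshold, trend, failing readout and replicates. Promoters were read from RefSeq windows of 300 bases.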

Additional observations from a re-analysis of the deposited data

Results flagged for a closer look

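In 3 of the 112 named probes 1 replicate stood far from the other 4, and in all 3 it was replicate 4 of array design 1. Chance flags about 1 in 20 groups of this size. Arid1a probe a had a log2 ratio of 0.93 there, while its other replicates lay between −0.19 and 0.092. Kdm6a probe a had 0.38, with the others between −0.20 and −0.047. Suz12 probe a had 0.63, with the others between −0.14 and 0.032. Without the failing readout of that replicate the same values were 0.065, 0.051 and 0.0011.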

How the results depend on the processing

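Counts of called members moved with most choices, and the shares over all probes, given beside them, moved too. On array design 1, 1 member was called higher and 0 lower, beside 0.638% and 0.013% of all probes. There were 0 and 33 without centring, beside 0.247% and 59.8%. Arrays scaled to 1 spread gave 3 higher, beside 4.47%. Plain readouts only gave 5 and 1, beside 5.73% and 0.794%, and B readouts only 0 higher, beside 0.0391%. Treated embryos in channel 1 only gave 11 and 5, beside 15.9% and 14.4%, and in channel 2 only 4 and 8, beside 4.14% and 10.3%. Single arrays with the replicate block gave 4 higher, beside 5.92%. The slide series as a term gave 0, beside 0.156%, and slide series 3000 only 0, beside 0.0391%. The threshold of 0.01 gave 0. Without variance moderation 2 were lower, beside 0.755%. The trend removed gave 2 higher, beside 0.56%. The failing readout left out gave 6 and 3, beside 10.2% and 5.77%, and both gave 2 and 2, beside 0.977% and 0.56%. Leaving out 1 replicate gave 0 to 1 higher, beside 0.0911% to 1.04%.

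Array design 2 had 19 higher and 4 lower, beside 19.8% and 8.07% of all probes. There were 0 and 72 without centring, beside 0.276% and 87.3%. Arrays scaled to 1 spread gave 1 lower, beside 2.37%. Plain readouts only gave 10 and 0, beside 12.8% and 1.37%, and B readouts only 2 lower, beside 6.76%. Treated embryos in channel 1 only gave 10 and 2, beside 9.33% and 6.33%, and in channel 2 only 0 and 0, beside 1.39% and 0.145%. The slide series as a term gave 2 lower, beside 6.5%, and slide series 3000 only 7 and 0, beside 9.99% and 0.684%. No variance moderation gave 9 and 0, beside 9.24% and 2.2%, and the trend removed 0 higher, beside 3.15%. The threshold of 0.01 gave 11 and 0. Leaving out 1 replicate gave 12 to 20 higher, beside 11.7% to 23.6%, and 0 to 4 lower, beside 1.64% to 11.1%. The replicate block on single arrays kept 18 higher and 6 lower, beside 20% and 12.6%. The cause was not tested.

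Log2 ratios that changed sign, and were called before or after the change, were as follows. Without centring, on array design 1, these were Arid1a b (−0.29), Cbx7 b (−0.20), Kat14 c (−0.22), Kdm6a b (−0.20), Kdm7a (−0.18) and Kmt2c a (−0.18), and on array design 2 Brd2 (−0.28), Brd3 a and b and c (−0.27 and −0.21 and −0.37), Brdt a (−0.34), Cbx1 (−0.23), Cbx5 (−0.20), Chd1 a and b (−0.33 and −0.38), Chd8 (−0.23), Dnmt3a b (−0.42), Eed (−0.18), Hdac1 (−0.26), Hdac2 a (−0.21), Hmga2 a (−0.40), Hmgb1 (−0.16), Hmgn1 (−0.15), Ing1 (−0.32), Ing4 (−0.29), Kat6a a (−0.38), Kdm2b (−0.30), Kdm5a b (−0.33), Kdm5b (−0.38), Kdm6a (−0.21), Kdm7a a and b (−0.14 and −0.26), Kmt5b a and b (−0.43 and −0.33), Rbbp4 a and b (−0.17 and −0.14), Rbbp7 (−0.22), Setd2 (−0.26), Setdb1 a and b (−0.29 and −0.33) and Smarca5 b (−0.28). With treated embryos in channel 2 only, they were Cbx7 b (−0.64), Kat14 c (−0.47), Kdm7a (−0.60), Kmt2c a (−0.59), Kmt5a b (−0.65) and Smarcad1 a (0.40) on array design 1 and Arid1b (0.14), Brd2 (−0.0036), Brd3 b (−0.38), Brdt b (0.18), Cbx1 (−0.29), Cbx5 (−0.022), Eed (−0.092), Hdac2 b (0.041) and Kdm7a a and b (−0.39 and −0.0032) on array design 2. With treated embryos in channel 1 only, they were Smarcad1 b (0.79) on array design 1 and Smarca5 b (−0.034) on array design 2. With the trend removed, they were Brd2 (−0.019), Cbx1 (−0.051), Hmga2 a (−0.34), Hmgb1 (−0.0030), Rbbp7 (−0.012) and Smarca5 b (−0.0093) on array design 2. With the trend removed and the failing readout left out, they were Arid1a b (−0.18) and Chd4 a (−0.19) on array design 1. Under the other settings no called value among the 112 named probes changed sign. The cause was not tested.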
